A study of Mus musculus with 8 samples.

Results

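Snf2h was mapped in 3134 cells, an untreated mouse mammary epithelial line, at 18232 replicated regions. A replicated region is a stretch of the genome in which hotspots of both Snf2h libraries overlapped by at least 1 bp and were merged. A hotspot is an interval enriched for sequence tags, as the authors called it in each library. The 18232 regions compare with 532751 merged regions that held a hotspot in any of the 6 lists of the series. The series used chromatin immunoprecipitation sequencing with antibodies to Brg1 (monoclonal), CHD4 and Snf2h, with 2 libraries for each antibody, and 2 DNA inputs that were not analysed here. All groups are the same line under the same untreated condition, so the antibody is the only labelled difference between them. The labels do not say that replicates came from separate cultures, so the spread between libraries may be technical. The lists hold positions and densities and no expression, so the mammary label could not be checked against marker genes. Coordinates are on mm9, and no gene is named from them because annotation of that build was not used here.

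Snf2h is an ATPase of the ISWI family of chromatin remodelers. It slides nucleosomes along DNA with energy from ATP and sets them at regular distances, and it works with partner subunits in complexes such as ACF, WICH, NoRC and RSF. It is known for roles at replicating chromatin, at ribosomal RNA genes and in ordering nucleosomes around sites bound by the insulator protein CTCF. Brg1 and CHD4, ATPases found in SWI/SNF and NuRD complexes, serve here only as the background against which the Snf2h regions were read.

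The Snf2h libraries differed in depth of calling, and replicate 1 stood apart from the other 5 lists when all were cut to its length. Replicate 1 had 32310 hotspots and replicate 2 had 79969, with lowest Z scores of 8.60 and 8.50. The lowest Z score was 9.49 and 8.77 in replicate 1 of Brg1 and CHD4 but 2 in replicate 2 of both, so those long lists were cut at a lower floor. How many tags lay behind each library is unknown. Height is given as MaxD, the maximum tag density of a hotspot in the authors' units, which took 145 distinct values in replicate 1 and 575 in replicate 2. Each list was cut to its 32310 tallest hotspots, and the number of hotspots per 1 Mb window was ranked over 2387 autosomal windows. Spearman's rho between replicate 1 and the other lists lay between 0.721 and 0.757, against 0.931 to 0.973 among the other 5 lists. These correlations are across windows that all lists share and describe the lists only. Replicate 1 left 17 of those windows empty (0.712%), and the other lists left 399 to 516 empty. Results that rest on replicate 1 are therefore given below with both libraries side by side.

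Most replicated regions were simple pairs of 1 hotspot from each library. This held for 17429 regions (95.6%), and 803 regions held more than 1 hotspot of a library. In 626 of these, several replicate 1 hotspots lay under a single replicate 2 hotspot, and in 137 a single replicate 1 hotspot lay under several of replicate 2. Of the replicate 1 hotspots, 58.6% fell in a replicated region (95% Wilson interval 58.1% to 59.2%), and of the replicate 2 hotspots 23.0% did (22.7% to 23.3%). Wilson intervals here cover counting error only. The replicate 1 hotspot lay wholly inside the replicate 2 hotspot in 56.6% of the simple pairs, and the reverse held in 6.29%. Hotspots of replicate 2 were wider, with a median ratio of 1.34 to the replicate 1 hotspot of the same region. The midpoints of the 2 hotspots lay a median of 61.5 bp apart, and 90% lay within 248.5 bp. In regions of up to 500 bp the median distance was 36.5 bp, and in regions over 1500 bp it was 358.5 bp. The width of a merged region bounds this distance and grows with it, so the difference is partly fixed by how regions were merged.

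Replicated Snf2h regions were mostly narrow. Their median width was 650 bp, with quartiles of 546 and 874 bp, and they covered 13.8 Mb together. The narrowest was 252 bp, which is the smallest hotspot in every list, and the widest was 3872 bp. Regions over 1 kb numbered 3276 (17.97%), and 147 were over 2 kb. Within the regions the replicate 1 hotspot had a median width of 457 bp and the replicate 2 hotspot 622 bp. Hotspots outside the regions were narrower, at 331 bp in replicate 1 and 400 bp in replicate 2. The requirement of an overlap favours wide hotspots, so this last difference is partly fixed by how regions were chosen. Replicated regions of the other antibodies, found in the same way but resting on those lists of lower floor, had medians of 802 bp for Brg1 and 897 bp for CHD4. At the 18232 tallest regions of each antibody the medians were 1099.5 bp for Brg1 and 1061 bp for CHD4. For Snf2h these are all its regions, whereas for Brg1 and CHD4 they are the tallest of 51805 and 30521. The sets are thus unlike, since only the other 2 were picked for height. The difference was not tested because each antibody gives a single set of regions. Over single lists the order depended on how many hotspots were kept. With each list cut to its 32310 tallest, the median hotspot width was 402 and 613 bp in the Snf2h lists and 532 to 929 bp in the others, a difference of means of -226 bp (exact two-sided permutation p = 0.267). In the full lists, which differ in length, it was 402 and 440 bp in the Snf2h lists and 366 to 485 bp in the other 4. The means over full lists were 421 ± 26.9 bp (SD, n = 2) and 417 ± 50.4 bp (SD, n = 4), and an exact two-sided permutation test over the 15 ways to pick 2 of 6 lists gave p = 0.933. No p below 0.0667 is possible in this design, so 0.05 could not be reached by any test over lists.

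The widest regions were also among the taller ones. The widest lay on chromosome 2 at 136939721 to 136943592 and joined 4 hotspots of replicate 1 with 2 of replicate 2. Its MaxD was 28.4 in replicate 1 and 69.7 in replicate 2. The next was 3678 bp wide, on chromosome 19 at 32460985 to 32464662, with MaxD of 33.9 and 76.6. The last of the 3 was 3426 bp wide, on chromosome 8 at 130880170 to 130883595, with MaxD of 25.6 and 51.5. All 3 stood above the 87th percentile of height in both Snf2h lists and held hotspots in all 4 lists of the other antibodies.

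**Figure D1:**
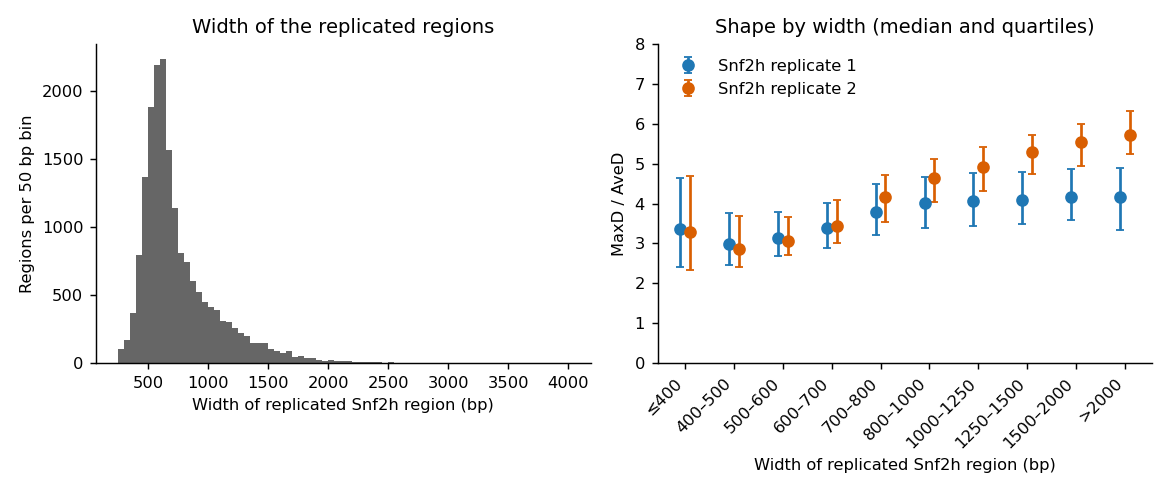
Left, number of replicated Snf2h regions per 50 bp of width. Right, the ratio MaxD/AveD of the tallest hotspot of each library in regions of increasing width (points are medians, bars run between quartiles, with replicate 1 in blue and replicate 2 in orange). Most regions lie between 400 and 1000 bp, and the ratio in replicate 2 goes from 2.86 at 400 to 500 bp to 5.73 above 2000 bp.

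Tall hotspots were found in both libraries far more often than low ones. In replicate 1, 6.21% of the lowest 10% by MaxD fell in a replicated region and 99.3% of the tallest 10% did. In replicate 2 the share went from 2.93% to 70.3%. The share was higher at each step of 10% in both lists. That of replicate 2 was lower at every step, and the shorter list caps how many of its hotspots can be matched. Presence in both lists is what defined the regions, so these shares are a description. Inside the regions MaxD had a median of 18.7 in replicate 1 (5th to 95th percentile 9 to 40.2) and of 22.9 in replicate 2 (6.15 to 69.7). As within-list percentiles the medians were 70.3 and 81.04. Across the 18232 regions MaxD ranked alike in the libraries, with Spearman's rho of 0.673, and 2335 regions were in the tallest 10% of both lists. Low regions were present too: 2001 (10.98%) lay in the lower 50% of both lists.

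The tallest regions stood far above the rest in both libraries. The tallest of all lay on chromosome 8 at 20019637 to 20020624, with MaxD of 564 in replicate 1 and 915 in replicate 2. The second was on the same chromosome at 19784321 to 19785311, with 304 and 580. The other 3 of the tallest 5 were well below these. One, at 151319474 to 151320856 of chromosome 2, had 152 in replicate 1 and 320 in replicate 2. Another, at 197067402 to 197068407 of chromosome 1, had 143 and 234. The last, at 130230345 to 130231328 of chromosome 5, had 126 and 241. All 5 were isolated, with no other replicated Snf2h region within 12500 bp, and were between 984 and 1383 bp wide. All 5 were also tall in the lists of the other antibodies, from 33.1 to 425 in the units of each list.

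Some regions were tall in 1 Snf2h library and low in the other. The difference of percentile between the libraries passed 60 points at 51 regions, of which 46 were higher in replicate 2. Over all regions 12597 of 18232 (69.1%) had the higher percentile in replicate 2, with a median difference of -6.08 points for replicate 1 minus replicate 2, and a shared region tends to rank higher in the longer list. The most unequal towards replicate 2 was on chromosome 10 at 14424669 to 14425725, with MaxD of 6.93 in replicate 1 (percentile 15.3) and 38.5 in replicate 2 (percentile 93.7). The next was on chromosome 14 at 103745742 to 103746524, with 6.93 and 37.6. Towards replicate 1 the most unequal was on X at 95896802 to 95897387, with 28.4 in replicate 1 and 3.78 in replicate 2. It was followed by one on chromosome 2 at 57771549 to 57772462, with 24.2 and 4.02. The first pair held hotspots in all 4 lists of the other antibodies and the second pair in 2 of them.

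**Figure D2:**
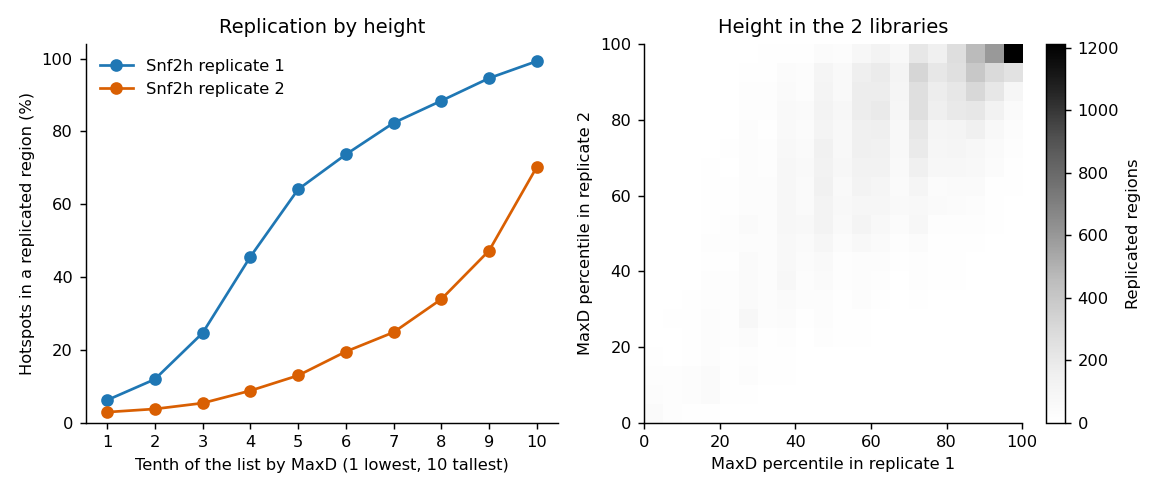
Left, share of the hotspots of each Snf2h library that fell in a replicated region, in steps of 10% of MaxD rank within the library (replicate 1 blue, replicate 2 orange). Right, number of replicated regions by MaxD percentile in the 2 libraries (darker squares hold more regions), with most regions in the upper right corner and 2335 in the tallest 10% of both.

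The shape of a hotspot was read as MaxD/AveD, its maximum over its average tag density. A factor common to both densities of a list would cancel in it, but the labels do not say how either density was scaled. A higher value means that the maximum stood further above the average. Its median in the replicated regions was 3.53 in replicate 1 (quartiles 2.90 and 4.33) and 3.81 in replicate 2 (3.01 and 4.78). The libraries ranked the regions by shape with Spearman's rho of 0.478, lower than by height. Within the replicated regions shape was nearly unrelated to height, with rho of 0.0359 between MaxD and MaxD/AveD in replicate 1 and 0.202 in replicate 2. Over whole lists the median ratio was lower in low hotspots. From the lowest to the tallest 10% by MaxD it went from 2.38 to 3.47 in replicate 1 and from 2.58 to 4.27 in replicate 2. Within the regions shape moved more with width. The Spearman correlation with the width of the merged region was 0.350 in replicate 1 and 0.605 in replicate 2. With the width of the library's own hotspot it was 0.0209 in replicate 1 and 0.571 in replicate 2, so in replicate 1 the relation held only with the merged width, which replicate 2 mostly set. These values are across regions, which are not independent replicates.

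Wide merged regions had the sharper summits in every class of height compared. Among regions between percentiles 75 and 90 of mean height, the 1391 regions of up to 600 bp had median ratios of 2.99 and 2.91 in replicates 1 and 2. The 1229 regions over 1000 bp had 4.14 and 5.28. Above percentile 90 the same widths gave 2.76 and 2.75 against 4.03 and 4.86. In both libraries regions of narrow merged width were thus flatter than those of wide merged width, with all grades between them. In replicate 1 this held for the merged width only, since its own hotspot width was nearly unrelated to shape. The order was not strict over all heights. Regions of up to 400 bp had 3.36 and 3.28 in replicates 1 and 2, and those of 400 to 500 bp had 2.97 and 2.86. A wide hotspot takes in more low flank, and how AveD was averaged is not stated. The flattest and most peaked regions in both libraries were therefore compared by what else they held. The lowest 25% of the ratio in both libraries held 2350 regions with a median width of 523 bp. The highest 25% in both held 1997 regions with a median width of 1020 bp. Regions at opposite ends in the 2 libraries numbered 352 and 392.

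Flat regions less commonly held Brg1 and CHD4 hotspots. Hotspots of all 4 Brg1 and CHD4 lists were present at 22.0% of the flat regions (95% Wilson interval 20.4% to 23.8%) and at 79.0% of the peaked regions (77.1% to 80.7%). The gap was widest in Brg1 replicate 1, which had a hotspot at 38.6% of flat and 93.5% of peaked regions. In CHD4 replicate 1 the shares were 53.9% and 83.1%. Wide regions have more room for an overlap, so every hotspot was also replaced by a window of 500 bp about its midpoint. The shares were then 20.6% and 63.6%. With height held between percentiles 75 and 90 as well, they were 21.9% of 631 flat regions (18.8% to 25.3%) and 65.7% of 755 peaked regions (62.2% to 69.0%). The share was thus lower at flat regions in equal windows and at similar height. That comparison was chosen after seeing the data and has no replicates beyond these libraries. Region width was not held in it, and flat regions were the narrower. In the same windows and over all heights, the share was 26.4% in regions up to 600 bp and 65.3% over 1000 bp. A relation to shape apart from width was not tested. A neighbouring replicated region lay within 12500 bp of 31.6% of flat and 42.2% of peaked regions.

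The extremes of shape were of another kind. Among simple pairs in the upper 50% of mean height, the highest mean ratios rested on 1 library. On chromosome 19 at 4810752 to 4811340 the ratio was 180 in replicate 1 and 4.83 in replicate 2, and on chromosome 17 at 80623483 to 80624108 it was 178 and 3.64. On chromosome 5 at 20999388 to 20999873 it was 3.92 and 127. In each case the extreme came from a short hotspot of 252 or 287 bp with AveD between 0.065 and 0.0894, and the other library gave a common shape. Ratios over 10 occurred at 276 regions in replicate 1 and 109 in replicate 2, with a median width of 252 and 257 bp for the hotspot concerned. The lowest ratios were shared by both libraries. The lowest pair, 1.24 in replicate 1 and 0.964 in replicate 2, was at 96366559 to 96366938 of chromosome 16. The next, 1.26 and 1.15, was at 116330884 to 116331292 of chromosome 10. The last, 1.32 and 1.20, was at 4140112 to 4140509 of chromosome 8. These 3 flat regions were 380 to 409 bp wide. MaxD was below AveD at 2 regions in replicate 1 and 5 in replicate 2, so the average cannot be a mean over the same values as the maximum.

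Neighbouring Snf2h regions were far apart for the most part. The median gap from the end of one region to the start of the next was 53.3 kb, with quartiles of 16.4 and 135 kb. Gaps of 12500 bp or less made up 20.9% of the 18212 gaps, and 375 gaps reached 1 Mb or more. At the shortest distances there was no empty zone: 230 gaps were under 150 bp, about the DNA of a nucleosome, and 157 lay between 150 and 300 bp. Such pairs could have been merged by a caller with another joining rule, and the rule used is not stated in the labels.

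Linking regions at gaps of up to 12500 bp left 11520 regions isolated and put 6712 (36.8%) in 2911 clusters. Most clusters were small. There were 2257 pairs and 493 triplets, and 52 clusters had 5 regions or more. The median cluster spanned 6.91 kb, and 90% spanned up to 14.2 kb. Replicate 1 alone put 39.8% of its merged hotspots in clusters, and replicate 2 alone put 65.2%. Cut to the 32310 tallest hotspots, replicate 2 still had 65.2%. Regions in larger clusters were taller. The median mean percentile of height was 71.4 for isolated regions, 76.9 in pairs, 80.3 in triplets and 85.3 in clusters of 5 or more. In replicate 1 the corresponding medians of MaxD were 17.3, 19.4, 20.8 and 23.5, and in replicate 2 they were 21.04, 24.4, 26.7 and 30.97. Width hardly moved, from 640 bp in isolated regions to 672 bp in clusters of 5 or more.

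The largest clusters lay on chromosome 13. The first had 13 regions over 53.3 kb at 23492538 to 23545886. MaxD there ran from 21.5 to 94.9 in replicate 1 with a median of 45.7, and from 18.7 to 115 in replicate 2 with a median of 38.1. Every region of it was thus above the median of 18.7 in replicate 1. CHD4 replicates 1 and 2 and Brg1 replicate 2 had a hotspot at 12 of the 13 regions each, and Brg1 replicate 1 at 5. The second cluster had 9 regions over 36.1 kb at 22107363 to 22143455, with medians of 27.7 in replicate 1 and 33.1 in replicate 2. Brg1 replicate 1 again had a hotspot at 5 of them, and CHD4 replicate 2 at all 9. The regions of the second cluster were wide, with a median of 1037 bp.

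The next clusters held 6 regions each and were 3 of 11 of that size, taken as the shortest. On chromosome 4 at 124378510 to 124392605, the 6 regions fitted in 14.1 kb and had median MaxD of 19.05 and 24.8 in replicates 1 and 2. On chromosome 16 at 5130722 to 5146032, they spanned 15.3 kb with medians of 24.6 and 38.9. On chromosome 6 at 70741346 to 70762312, they spanned 20.97 kb with medians of 14.9 and 15.5. The last was the only one of these 5 clusters below the median height of all replicated regions in both libraries. It was also the least shared, with hotspots of all 4 other lists at 1 of its 6 regions.

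**Figure D3:**
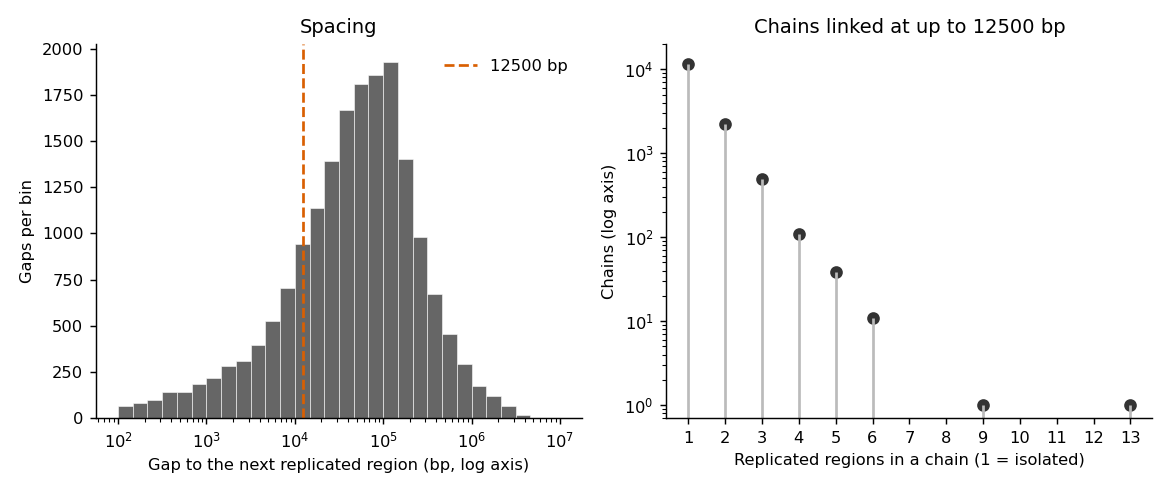
Left, gaps between neighbouring replicated Snf2h regions on a log axis (bars are counts per bin, the dashed line is the 12500 bp used to link regions, and the 160 gaps under 100 bp are not drawn). Right, number of chains by the regions they hold, on a log axis, from 11520 isolated regions to a single chain of 13.

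Tall Snf2h hotspots had a close neighbour less commonly than equally ranked hotspots in each list of the other antibodies, a difference that did not pass the test. Among the 5000 tallest of each list, 24.9% in replicate 1 and 23.9% in replicate 2 had another within 12500 bp. In the other lists the share was 30.8% to 37.8%. Among the 10000 tallest the Snf2h shares were 36.8% and 37.4%, and the others 44.1% to 48.6%. Both Snf2h lists were below all 4 others at 5000, 10000 and 20000 hotspots, and the difference was -10.7, -9.05 and -8.52 percentage points. Each had an exact two-sided permutation p of 0.0667, the smallest that 15 splits allow, and 0.267 after Benjamini-Hochberg adjustment over 12 such tests. These depths were chosen after seeing the data. At the fixed depth of 32310 hotspots the groups overlapped, because replicate 2 reached 65.2% and replicate 1 stayed at 39.8%, against 64.4% to 68.5% in the other lists. The means were 52.5% ± 18 (SD, n = 2) and 65.7% ± 1.86 (SD, n = 4), with an exact permutation p of 0.2. Without replicate 1 the difference was -0.517 points. In replicate 1 the share fell from 45.1% at 20000 hotspots to 39.8% at 32310, so its lower hotspots added isolated sites. As replicated regions, 36.8% of Snf2h regions had a neighbour, against 53.3% and 56.0% of the 18232 tallest Brg1 and CHD4 regions. The Snf2h set there is all its replicated regions, whereas the others are the tallest of 51805 and 30521.

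In shape no difference between lists was detectable. At the 32310 tallest hotspots the median MaxD/AveD was 3.38 and 4.05 in the Snf2h lists and 3.58 to 5.01 in the others. The means were 3.71 ± 0.474 (SD, n = 2) and 4.33 ± 0.590 (SD, n = 4), and the exact permutation p was 0.267 (0.533 after Benjamini-Hochberg adjustment over 4 tests). The other 4 lists pool 2 antibodies, so their SD mixes antibody and library. In replicate 1 Snf2h had 3.38 against 3.58 for Brg1 and 4.27 for CHD4. In replicate 2 it had 4.05 against 4.48 and 5.01.

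**Figure D4:**
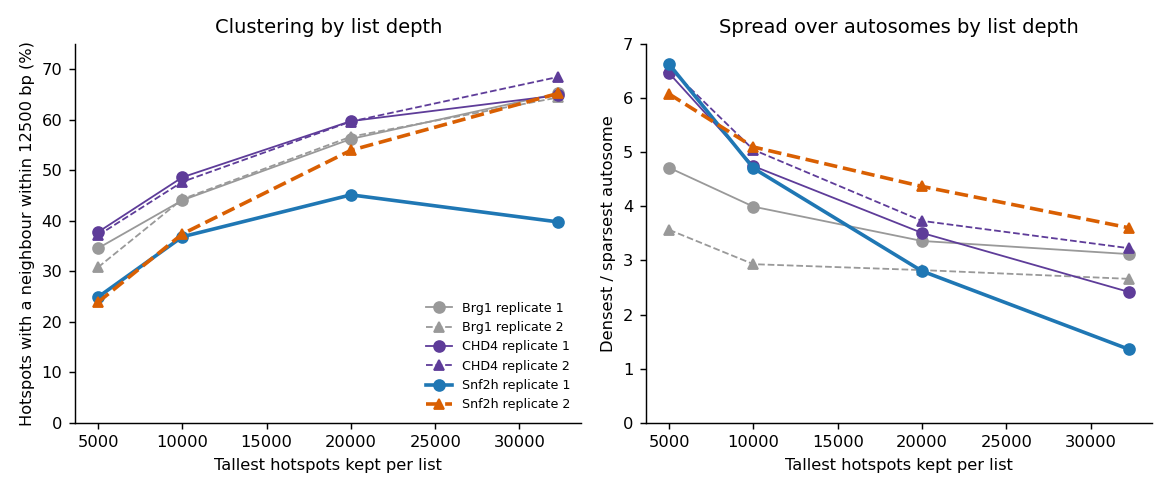
Values of each hotspot list as more of its hotspots are kept, from the 5000 to the 32310 tallest (Snf2h replicate 1 blue, replicate 2 orange, Brg1 grey, CHD4 purple, circles for replicate 1 and triangles for replicate 2). Left, the share of hotspots with a neighbour within 12500 bp, where both Snf2h lists lie below the others up to 20000 hotspots. Right, the densest over the sparsest autosome, where Snf2h replicate 1 goes from 6.63 to 1.35.

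Replicated Snf2h regions were unevenly spread over the autosomes, which held 17727 of them. Chromosome 11 had 11.3 per Mb and chromosome 14 had 4.99, a ratio of 2.27. Chromosomes 19, 15, 17 and 9 followed chromosome 11 at 9.36, 8.67, 8.52 and 8.17 per Mb. At the low end, chromosomes 3, 18 and 12 had 6.50, 6.10 and 5.67. The other 10 autosomes lay close together, between 6.69 and 7.87 per Mb. Gaps and clustering depend on density, so they are not a separate trait of an autosome. The median gap was 37.2 kb on chromosome 11 and 74.4 kb on chromosome 14, and 43.9% and 27.9% of their regions were in clusters. The order was not strict. Chromosome 7, at 7.31 per Mb, had a median gap of 44.3 kb and 39.1% in clusters, and the denser chromosome 9 had 57.4 kb and 36.6%. Height went with density in part, with a median mean percentile of 83.5 on chromosome 11 and 66.1 on chromosome 14. Width and shape did not set chromosomes 11 and 14 apart. Median widths ran from 637 to 666 bp over all 19 autosomes, and the median ratio in replicate 1 from 3.47 to 3.60. In replicate 2 the median ratio ran more widely, from 3.69 to 4.07, with 3.74 on chromosome 11 and 3.73 on chromosome 14. The X chromosome carried 505 regions at 3.09 per Mb, with a median mean percentile of 44.6.

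The evenness of the single lists differed from that of the regions they shared. All hotspots of replicate 1 ran only from 11.5 per Mb on chromosome 12 to 15.6 on chromosome 11. All hotspots of replicate 2 ran from 27.8 to 40.3, ratios of 1.35 and 1.45. Hotspots of replicate 1 outside the replicated regions ran the other way, from 3.81 per Mb on chromosome 19 and 3.91 on chromosome 11 to 6.35 on chromosome 14. With a near constant total per Mb, fewer hotspots had to remain where more were replicated. Hotspots of replicate 2 outside the regions did not run that way, with 28.9 per Mb on chromosome 11, 22.8 on chromosome 14 and the lowest value of 22.1 on chromosome 1. The share of replicate 1 hotspots in replicated regions was 74.99% on chromosome 11 and 45.1% on chromosome 14, and that of replicate 2 hotspots was 28.3% and 18.1%. Tall hotspots were uneven in both libraries. Among the 5000 tallest the ratio of the densest to the sparsest autosome was 6.63 in replicate 1 and 6.08 in replicate 2, against 3.57 to 6.56 in the other lists. At that depth the sparsest autosome was 18 in replicate 1 and 14 in every other list. Hotspots tied in MaxD at a cut were kept in order of chromosome number, and the effect of this on the ratio was not tested. At 10000 the ratio was 4.70 and 5.10, and at 32310 it was 1.35 and 3.60. The unevenness of Snf2h sites over autosomes thus depended on how far down a list was read, above all in replicate 1. Of the replicate 1 hotspots outside the regions, 39.1% overlapped a hotspot of any Brg1 or CHD4 list, against 60.3% for replicate 2 and 96.1% of the replicated regions.

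**Figure D5:**
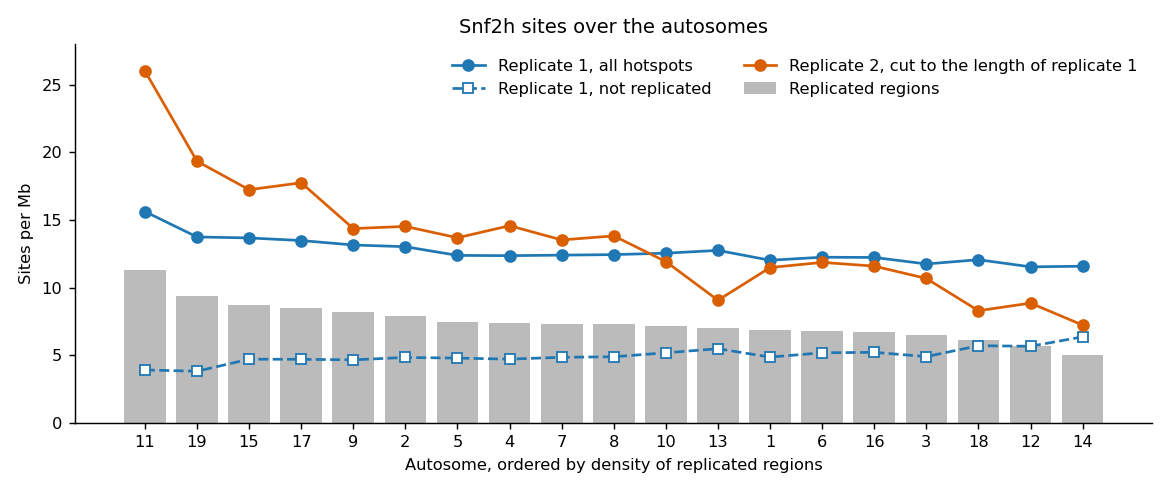
Snf2h sites per Mb on the 19 autosomes, in order of the density of replicated regions (grey bars). Replicate 1 (blue circles) stays between 11.5 and 15.6 per Mb and its hotspots outside the replicated regions (open squares) are lowest on chromosomes 19 and 11, while replicate 2 held to the same number of hotspots (orange) goes from 26.01 on chromosome 11 to 7.22 on chromosome 14.

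At the scale of 1 Mb the regions gathered in part of the genome. The median window held 6 replicated regions, and 244 of 2387 windows (10.2%) held none. The densest 10% of windows held 27.8% of the regions. The densest window was chromosome 15 from 78 to 79 Mb, with 36 replicated regions out of 38 hotspots of replicate 1 and 98 of replicate 2. Chromosome 19 from 5 to 6 Mb had 33, out of 39 and 93. Chromosome 10 from 80 to 81 Mb had 31, out of 33 and 101. These windows were chosen for their replicated regions. They were also rich in the other antibodies, with 89 to 111 hotspots of Brg1 replicate 1 and 50 to 57 of CHD4 replicate 1.

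The longest stretches between neighbouring regions were 9.95 and 5.56 Mb on X and 7.72 Mb on chromosome 7. On X the stretch from 23401350 to 33353084 had 18 hotspots of replicate 1 and 20 of replicate 2, none of them overlapping. The shorter one, from 113263301 to 118826534, had 72 and 89. On chromosome 7 the stretch from 39056757 to 46773006 had 0 and 8, and 2 to 23 in the lists of the other antibodies. The other lists had 3 to 34 hotspots in the longer stretch on X and 30 to 204 in the shorter. Only the shorter stretch on X thus held many Snf2h hotspots, which lay at different places in the 2 libraries. The longer stretch on X and that on chromosome 7 held few hotspots of any list for their length.

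In the share of hotspots in the densest 10% of windows, no difference between Snf2h and the other antibodies was detectable with these lists. At 32310 hotspots the share was 19.4% and 38.7% in the Snf2h lists and 29.5% to 37.1% in the others. The means were 29.1% ± 13.6 (SD, n = 2) and 33.9% ± 3.32 (SD, n = 4), with an exact permutation p of 0.6. Without replicate 1 the difference changed sign from -4.80 to 4.81 points. At the 5000 tallest the Snf2h lists reached 48.5% and 51.3%, inside or just above the 43.4% to 51.0% of the others. The ranges of the antibodies thus overlapped for concentration in dense megabases, while at the same depth they did not overlap for neighbours within 12500 bp.

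Few replicated Snf2h regions lacked a hotspot of the other remodelers. A hotspot of at least 1 Brg1 or CHD4 list was present at 96.1% of them, and of all 4 lists at 55.2% (95% Wilson interval 54.4% to 55.9%). Among hotspots outside the regions, 39.1% of replicate 1 and 60.3% of replicate 2 overlapped at least 1. All 4 lists were present at 33.0% of all merged hotspots of replicate 1 and 25.3% of replicate 2. By list the share of replicated regions was 69.6% for Brg1 replicate 1, 89.5% for Brg1 replicate 2, 71.7% for CHD4 replicate 1 and 88.9% for CHD4 replicate 2. The long second lists, with the lower floor of Z, gave the higher shares. With all lists held to 32310 hotspots, 43.6% of the replicated Snf2h regions had all 4. Co-occurrence was more frequent at taller regions: all 4 lists were present at 0.562% of regions up to percentile 10 of mean height and at 80.2% above percentile 90. It was also more frequent at wider regions of a given height, from 33.1% of regions up to 600 bp to 83.5% of those over 1000 bp between percentiles 75 and 90. In 500 bp windows the shares by width over all heights were 26.4% up to 600 bp, 57.5% from 600 to 1000 bp and 65.3% over 1000 bp.

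The 710 regions (3.89%) with no hotspot of another antibody were mostly low. Their median MaxD was 9.70 in replicate 1 and 5.91 in replicate 2, against 20.1 and 28.1 at regions with all 4 other lists. They were also narrow, with a median of 487 bp against 764 bp, and only 16.6% had a Snf2h neighbour within 12500 bp against 40.6%. The 54 that lay above percentile 75 of mean height had median ratios of 2.93 and 2.85 in replicates 1 and 2 and a median width of 561 bp. The 6016 regions with all 4 other lists at that height had 3.78 and 4.30 and a median width of 825 bp. The low ratio was not particular to regions without another antibody, since all regions of up to 600 bp between percentiles 75 and 90 had 2.99 and 2.91. The tallest region without another antibody was on chromosome 6 at 135094442 to 135095075, with MaxD of 40.2 and 36.4. The next was on chromosome 17 at 27224213 to 27224866, with 24.2 and 48.0. The third was on chromosome 12 at 88108729 to 88109301, with 28.4 and 30.03. Their ratios lay between 2.90 and 3.51 in both libraries. Absence of a hotspot says only that none was called in those 4 lists, whose depth is unknown.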

How the data were processed

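Hotspots of 6 ChIP-seq libraries were analysed, 2 each for Brg1, CHD4 and Snf2h. Groups and replicate numbers came from the titles. The submitters' processing notes name CASAVA 1.6 and mm9 without their role. The extraction text in the labels describes another assay, and no source used here gives the immunoprecipitation, caller, thresholds or use of inputs. Each deposited list gives MaxD and AveD, tag densities (a signal whose scaling is not stated), a Z score and a p-value per hotspot, per the file headers, and these are the authors' own. Densities were used within a list, as percentiles or as ratios.

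Intervals were read as closed and analysed with Python 3.11.15, numpy 2.4.6, scipy 1.17.1, pandas 2.3.3 and matplotlib 3.10.9. In a region with several hotspots of a library, the tallest stands for it. Hotspot lists were cut from the tallest down by MaxD, with ties taken in order of chromosome and position. Gaps run from edge to edge, and clusters link gaps of up to 12.5 kb. Densities per Mb use the span from the lowest start to the highest end in the 6 lists, and 1 Mb windows use midpoints. Antibodies were compared by exact permutation of lists. The code was tested on simulated data. The regions and measures were chosen with earlier results of these data known. Regions named are the tallest 5, widest 3, 3 of highest and 3 of lowest MaxD/AveD among simple pairs in the upper 50% of height, the 5 largest clusters (ties by shorter span), 3 densest windows, 3 longest stretches, 2 most unequal regions each way and the 3 tallest without another antibody. Alternatives are given in the closing section. No sequence is shown, as a genome of mm9 was not used here.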

Additional observations from a re-analysis of the deposited data

How the results depend on the processing

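The number of replicated regions stayed within 1.5 times of 18232 under an overlap of 50% of the shorter hotspot, with the taller 50% of both lists, with lists cut to equal length and without the tallest 1%. With 1 Snf2h library standing for the sites, it was 32303 to 79929, the median width 402 to 440 bp, the median MaxD/AveD 3.38 to 3.59, the clustered share 39.8% to 65.2%, the share in the densest 10% of windows (dense-window share) 19.2% to 19.4%, the ratio of autosomes 1.35 to 1.45, and the share with all 4 other lists 25.3% to 33.0%. The taller 50% of each list gave a width of 685 bp, a dense-window share of 36.1% and an autosome ratio of 3.60. Lists of equal length gave 697 bp, 33.8% and 3.14, and 43.6% with all 4 other lists. Without the tallest 1% the dense-window share was 27.1% and the ratio 2.12. The dense-window share was 28.1% at 50% overlap and 22.1% in windows of 5 Mb. The SD between the Snf2h lists is only 0.157 points for that share and 0.0651 for the autosome ratio, so small shifts exceed it. In 500 bp windows about midpoints, chosen after seeing the data, 47.1% of regions had all 4 other lists. Linking at 5 or 25 kb gave 22.1% or 53.0% of regions in clusters.

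Over lists, the width difference of 4.25 bp turned to -226 bp at equal length (exact permutation p = 0.267), and ran from -14.8 to 27 bp when 1 list was left out. The shape difference ran from -0.957 to -0.287 and the clustering difference from -26.0 to -0.517 points, and with full lists they were -0.0976 and -27.8 points. The dense-window difference turned to 1.82 points with full lists, to 2.05 at 5000 and 2.26 at 10000 hotspots, and ran from -14.4 to 4.81 points. With the replicate number as a block the 4 differences were unchanged at 4.25 bp, -0.622, -13.3 and -4.80 points by balance (exact permutation p = 1, 0.222, 0.222 and 0.556). No label says that numbers mark a shared batch. Tag depth and inputs, unknown here, limit every comparison of levels.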

Other observations

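Neighbouring replicated Snf2h regions resembled each other in height. Across the 869 neighbour pairs under 1 kb apart, the mean percentiles of MaxD had a Spearman's rho of 0.479, against 0.384 for 1643 pairs 5000 to 12500 bp apart and 0.284 for 3011 pairs over 200000 bp apart. The median difference between neighbours was 11.5, 10.9 and 19.2 percentile points in these groups, so by that measure only distant pairs were less alike. The pairs share libraries, and adjacent pairs share a region, so these are descriptions.

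The replicated regions were denser towards the high-coordinate end of the autosomes. The first 10% of the span held 7.93% of the 17727 autosomal regions and the last 10% held 12.4%. The last 20% held 4362 regions and the first 20% held 3050, and the last exceeded the first on 14 of 19 autosomes. The largest excess was on chromosome 4, with 387 against 145, and the exceptions were chromosomes 13, 14, 16, 17 and 19. Chromosome 14 had 73 in the last 20% and 115 in the first.

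At 7548 replicated regions every list had exactly 1 hotspot, so the position of Snf2h could be set beside that of the other antibodies. Midpoints of the 2 Snf2h hotspots lay a median of 65 bp apart. Those of CHD4 replicate 1 were as close, at 63 bp from Snf2h replicate 1 and 60.5 bp from Snf2h replicate 2. Distances from Brg1 replicate 1 were 92.2 and 71 bp, and those from the wider hotspots of Brg1 replicate 2 and CHD4 replicate 2 were 102 to 132 bp. At these regions the median hotspot was 486 and 673 bp wide in the Snf2h lists, 632 and 1063 bp in the Brg1 lists and 627 and 1031 bp in the CHD4 lists, and width moves with the distance between midpoints.

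Of the 51 regions whose percentile differed by over 60 points between the Snf2h libraries, 8 were on X, which held 505 of the 18232 regions.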
